A study of Pinus pinaster with 36 samples.

Results

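A set of 142 transcripts was lower in every needle library of maritime pine seedlings kept at 720 ppm CO2 than in every needle library kept at 400 ppm. The members were chosen by their measured needle levels, in CPM, which are counts divided by the library total and put on a common scale. A transcript entered the set when its mean over the 12 needle libraries lay between 5 and 500 CPM, all 6 libraries at 720 ppm were below all 6 at 400 ppm, and the mean at 400 ppm was at least 1.4 times the mean at 720 ppm. Of the 224081 transcript identifiers, 27368 had a needle mean in that range, and 142 of these met the whole rule (0.519%). The rule allowed up to 200 transcripts, so none was dropped. The needle difference between CO2 levels chose these transcripts, and it is therefore described here without a test.

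The study measured RNA from Pinus pinaster, a Mediterranean conifer, in needles, stem and roots. Seedlings of the provenance Segura-Alcaraz were watered weekly with 40 mL of 8 mM NH4Cl (ammonium) or 8 mM KNO3 (nitrate) for 1 month, starting at the age of 2 months. They grew in air with 400 or 720 ppm CO2, which gave 4 groups: ammonium at 400 ppm, ammonium at 720 ppm, nitrate at 400 ppm and nitrate at 720 ppm. Each group had 3 biological replicates per organ (36 libraries in all), and all 3 organs of a replicate came from 1 pool of 12 seedlings. No group went without nitrogen, and the salts differed in their other ion, chloride or potassium, which cannot be told apart from the nitrogen form. The labels name no chamber, so growth chamber and CO2 level cannot be told apart either.

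Carbon dioxide is the substrate that Rubisco fixes in the chloroplasts of needle cells, and needles of many conifers lower part of their photosynthetic capacity during long growth in CO2-rich air. Nitrate has to be reduced to ammonium before glutamine synthetase can bring it into amino acids, whereas ammonium enters that step directly. The deposited table pairs no identifier with a gene name. The transcripts are therefore named by identifier, their roles are not given, and the labelled organs could not be checked against marker genes. In RNA from whole organs, fewer cells of a type and less of a transcript per cell cannot be told apart.

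The needle libraries held 73414247 to 134836160 counts, the stem libraries 76082457 to 111368507 and the root libraries 76221102 to 120587917. The smallest count of any of the 142 transcripts in a needle library was 156, so none was near the limit of detection there. Even numbers made up over 65% of the counts above 20 in 7 libraries, which are called low-complexity libraries below. In needles they were 3 libraries at 400 ppm (replicate 2 with ammonium, replicates 1 and 2 with nitrate) and 1 at 720 ppm (replicate 3 with ammonium), and the other 3 were stem libraries. Counts in them cannot all be taken as independent fragments, so margins between libraries are less certain than the counts alone would make them. Among the counts of the 142 transcripts themselves, even numbers made up 57.7, 58.5 and 52.8% in these needle libraries at 400 ppm, in the order named. The share was 72.5% in that at 720 ppm, and 38.7 to 59.9% in the needle libraries below the limit.

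The differences in needles were modest in size. The ratio of the mean at 400 ppm to the mean at 720 ppm had a median of 1.45 over the 142 transcripts and ran from 1.40009 to 2.02. It was at least 2 for 1 transcript and at least 1.6 for 14, and it was under 1.5 for 107. The median ratio over all 27368 transcripts in the abundance range was 1.08. Most of the set was of low abundance. Its needle means ran from 5.01 to 253 CPM with a median of 9.21 CPM, against 12.4 CPM over the abundance range, and 81 transcripts were under 10 CPM while 8 were over 50 CPM.

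PpCO2_91546 had the largest ratio, 2.02. Its needle level was 48.4, 40.3 and 43.0 CPM in the 3 ammonium libraries at 400 ppm and 36.0, 50.04 and 53.2 CPM in the 3 nitrate libraries at 400 ppm. At 720 ppm it was 22.1, 20.4 and 25.2 CPM with ammonium and 22.3, 22.4 and 21.6 CPM with nitrate. The 6 libraries at 720 ppm lay close together under both nitrogen forms, and the lowest library at 400 ppm was 1.43 times the highest at 720 ppm.

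PpCO2_139296 and PpCO2_139297, which carry neighbouring numbers, followed with ratios of 1.90 and 1.94. PpCO2_139297 measured 17.0, 11.4 and 12.0 CPM with ammonium at 400 ppm against 7.57, 7.47 and 7.04 CPM at 720 ppm. With nitrate it measured 13.2, 11.1 and 13.1 CPM at 400 ppm against 5.20, 6.07 and 6.69 CPM at 720 ppm. Its gap between the lowest library at 400 ppm and the highest at 720 ppm, a factor of 1.46, was the widest of the 142. PpCO2_139296 went from 9.38 ± 1.27 CPM (SD, n = 6) at 400 ppm to 4.93 ± 0.428 CPM (SD, n = 6) at 720 ppm, with its libraries at 7.76 to 11.1 CPM and 4.43 to 5.45 CPM.

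The other 5 of the 8 largest ratios had wider spread or narrower gaps. PpCO2_27710 (ratio 1.89) measured 10.2, 10.3 and 20.3 CPM with ammonium and 21.5, 10.9 and 16.8 CPM with nitrate at 400 ppm, against 6.01 to 9.99 CPM over the libraries at 720 ppm. Of its 6 libraries at 400 ppm, 3 stood close to the highest library at 720 ppm. PpCO2_64803 (ratio 1.81) lay at 6.98 to 13.0 CPM at 400 ppm and at 4.31 to 6.78 CPM at 720 ppm. PpCO2_135120 (ratio 1.75) measured 9.68, 10.9 and 8.80 CPM with ammonium and 6.65, 11.3 and 9.89 CPM with nitrate at 400 ppm, and 6.55, 4.69, 5.49 and 6.64, 4.70, 4.74 CPM at 720 ppm. One nitrate library at 400 ppm, replicate 1, set its gap, which was a factor of 1.00. PpCO2_80235 (ratio 1.69) and PpCO2_110580 (ratio 1.67) closed the group, and PpCO2_110580 had 1 low library, ammonium 720 ppm replicate 3 at 4.02 CPM, beside 8.75 to 11.6 CPM in the other libraries at 720 ppm. That library is a low-complexity one.

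**Figure D1:**
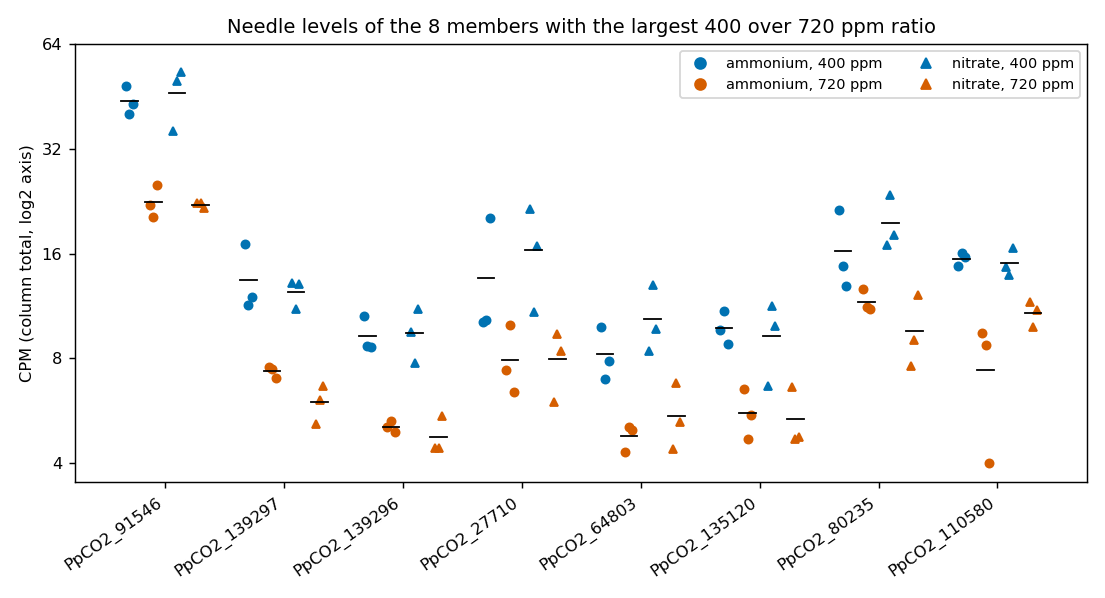
Needle level in CPM, on a log2 axis, of the 8 transcripts with the largest ratio of means, with 1 point per library and a bar at the mean of each nitrogen form and CO2 level (3 libraries each). Every library at 720 ppm lies below every library at 400 ppm, as the rule requires, with a wide gap for PpCO2_91546 and PpCO2_139297 and almost none for PpCO2_135120.

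The 4 most abundant transcripts of the set had ratios of 1.41 to 1.51, on both sides of the set's median of 1.45. PpCO2_119793 measured 236 to 333 CPM at 400 ppm and 177 to 229 CPM at 720 ppm, a ratio of 1.42. PpCO2_61476 measured 215 to 292 CPM at 400 ppm and 142 to 209 CPM at 720 ppm, a ratio of 1.51, and PpCO2_119789 measured 186 to 252 CPM and 138 to 177 CPM, a ratio of 1.41. PpCO2_162476 had 82.2 to 142 CPM at 400 ppm and 62.7 to 79.1 CPM at 720 ppm, a ratio of 1.51. In each of these 4 the gap between the CO2 levels was small next to the spread among libraries of 1 level.

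Narrow gaps were common in the set. The lowest library at 400 ppm was at a median of 1.08 times the highest library at 720 ppm and was over 1.2 times it for 9 transcripts. The lower bound on the ratio was also an arbitrary point in a continuous range. The last transcripts inside it were PpCO2_166150 (15.7 against 11.2 CPM, ratio 1.40049) and PpCO2_168711 (7.97 against 5.69 CPM, ratio 1.40009). Just outside it stood PpCO2_71916 (15.2 against 10.8 CPM, ratio 1.39959) and PpCO2_72591 (24.0 against 17.1 CPM, ratio 1.39941), both of them also lower in all 6 libraries.

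Scaling by the library total carried a shift between the CO2 levels that touched most transcripts. Over the abundance range, 70.6% of transcripts had a ratio above 1, and their median log2 ratio of 720 to 400 ppm was -0.11. The 50 most abundant needle transcripts took 10.7 to 12.8% of the counts at 400 ppm and 13.0 to 15.4% at 720 ppm, with no overlap between the levels. Of these 50, 43 had a higher mean at 720 ppm, and none belonged to the set. TMM scaling factors, by which edgeR sets the library sizes from the bulk of transcripts, were 1.00 to 1.09 at 400 ppm and 0.909 to 0.988 at 720 ppm, and with them the median log2 ratio was 0.01.

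The size of the set depended on that choice of scaling. With CPM set by the TMM library size, 22 of the 142 transcripts met the rule and no others did. The 142 then had ratios of 1.29 to 1.86 with a median of 1.34, 79 of them still had all 6 libraries at 720 ppm below all 6 at 400 ppm, and 30 had a ratio of at least 1.4. With DESeq2's size factors 27 met the rule. The 22 included the 3 largest ratios of the set, PpCO2_91546, PpCO2_139297 and PpCO2_139296, at 1.86, 1.80 and 1.76 by TMM, whereas PpCO2_27710 and PpCO2_135120 were not among them, since their groups overlapped.

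**Figure D2:**
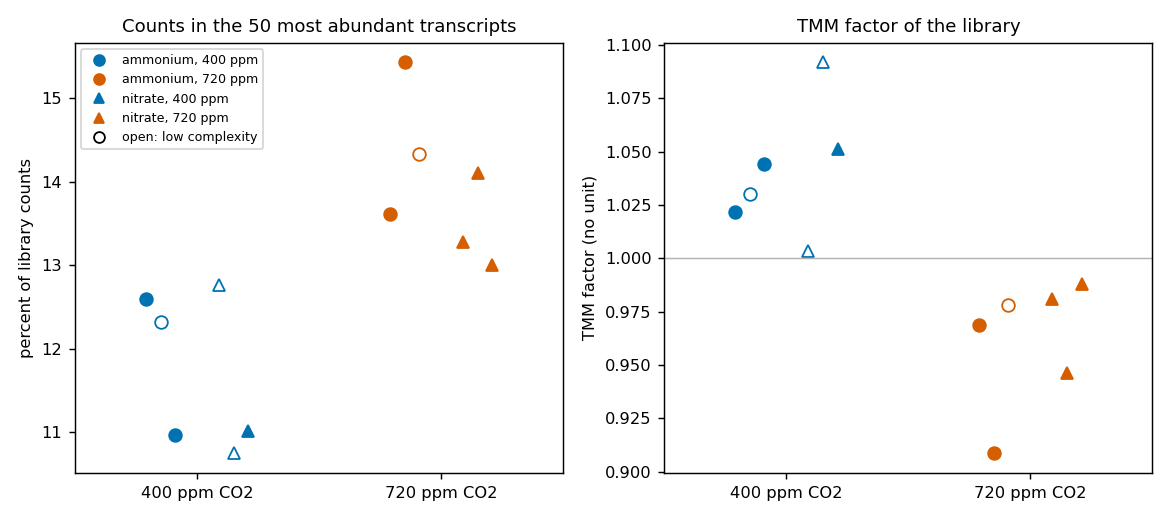
Left, percent of each needle library's counts in the 50 most abundant transcripts; right, the TMM factor of each needle library, both by CO2 level, with 1 point per library and open points for low-complexity libraries. The shares at 400 ppm (10.7 to 12.8%) lie below those at 720 ppm (13.0 to 15.4%), and the factors at 400 ppm (1.00 to 1.09) lie above those at 720 ppm (0.909 to 0.988).

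The 2 directions were unequal by the library total and reversed their order by TMM. In the abundance range, 1084 transcripts (3.96%) had all 6 libraries at 720 ppm below all 6 at 400 ppm by the library total and 178 (0.65%) had all 6 above. The whole rule run in the opposite direction gave 53 transcripts (0.194%). By the TMM library size, 283 (1.03%) were below and 516 (1.88%) above, and the opposite rule gave 162. The larger number of transcripts lower at 720 ppm was thus not kept under TMM.

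The low-complexity libraries were spread unequally, 3 of the 6 needle libraries at 400 ppm and 1 of the 6 at 720 ppm. The lowest library at 400 ppm was one of them for 70 of the 142 transcripts, and the highest at 720 ppm for 8. Without these 4 libraries, the remaining 3 at 400 ppm and 5 at 720 ppm gave 242 transcripts, of which 55 belonged to the 142. The 142 transcripts then had ratios of 1.11 to 2.21 with a median of 1.38, and 60 had a ratio of at least 1.4. Leaving out 1 needle library at a time gave 116 to 260 transcripts. The number was 260 without ammonium 400 ppm replicate 1, 258 without nitrate 400 ppm replicate 1 and 240 without nitrate 720 ppm replicate 3, and each of these moved it by over 1.5 times. Full separation is easier to meet with fewer libraries, so these rises cannot be read as effects of the particular libraries left out. A transcript of the 142 could drop out only through its ratio or its mean. The share of even numbers among needle counts above 20 also differed between libraries below the low-complexity limit. At 400 ppm it was 54.2, 70.1 and 62.2% with ammonium and 72.3, 68.3 and 59.6% with nitrate. At 720 ppm it was 53.2, 52.7 and 73.1% with ammonium and 53.3, 54.3 and 55.4% with nitrate. Leaving out the 4 low-complexity libraries thus did not fully even out this share between the CO2 levels. The part of library complexity in the choice of transcripts was not tested.

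Under each nitrogen form the 142 transcripts were lower at 720 ppm, which the rule fixes. Their summed level with ammonium was 2889 ± 49.9 CPM at 400 ppm and 1949 ± 118 CPM at 720 ppm (SD, n = 3 each). With nitrate it was 3068 ± 261 CPM at 400 ppm and 2095 ± 66.1 CPM at 720 ppm (SD, n = 3 each). The sums of all 6 libraries ran from 2805 to 3327 CPM at 400 ppm and from 1834 to 2171 CPM at 720 ppm.

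The size of the ratio varied between the nitrogen forms from transcript to transcript. Its median was 1.51 with ammonium and 1.42 with nitrate, beside medians of 1.09 and 1.06 over the abundance range. The ratio was larger with ammonium for 90 transcripts and larger with nitrate for 52, and it reached 1.4 under both forms for 56. By the interaction fitted below, the lean to ammonium was not kept without the low-complexity library ammonium 720 ppm replicate 3. PpCO2_110580 had the largest ammonium ratio, 2.09 (15.5 ± 0.653 against 7.40 ± 2.95 CPM, SD, n = 3), beside 1.39 with nitrate, and the low library described above enters the former. PpCO2_91546 had the largest nitrate ratio, 2.10 (46.4 ± 9.13 against 22.1 ± 0.435 CPM, SD, n = 3), beside 1.95 with ammonium. The smallest ratios, chosen after their values were seen, were 1.27 with ammonium for PpCO2_156131, which had 1.55 with nitrate, and 1.17 with nitrate for PpCO2_12555, which had 1.70 with ammonium.

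**Figure D3:**
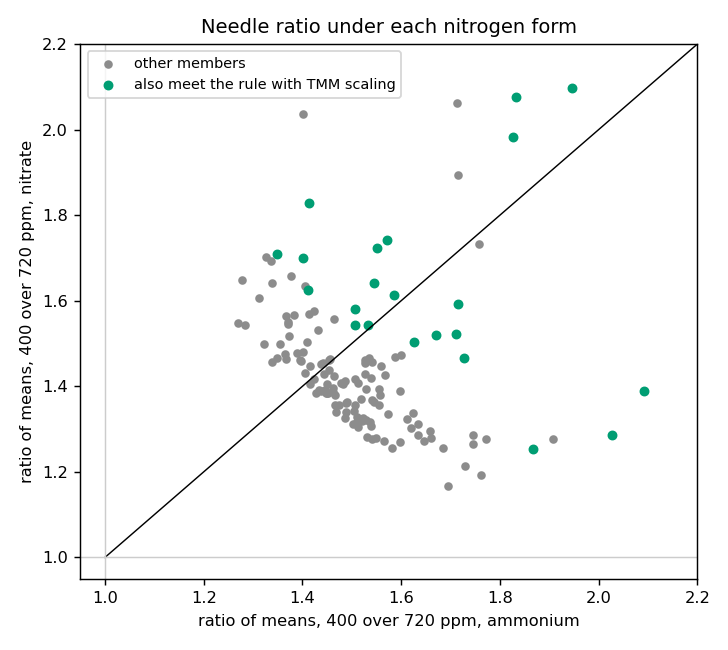
Ratio of the needle mean at 400 ppm to that at 720 ppm for the 142 transcripts, with the ammonium ratio on one axis, the nitrate ratio on the other and a line of equality, and with the 22 that also meet the rule by TMM in green. The ammonium ratio is the larger for 90 transcripts and the nitrate ratio for 52, with the ranges 1.27 to 2.09 and 1.17 to 2.10.

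The interaction of CO2 and nitrogen form was fitted on the same needle values that chose the set. The rule required separation under both forms and so kept out transcripts with strongly unequal CO2 differences, and its values for the 142 are a description. It was called for 0 of 117123 needle transcripts (0%) by edgeR's quasi-likelihood test at a Benjamini-Hochberg adjusted p under 0.05, and so for 0 of the 142. At an unadjusted p under 0.05 there were 4337 transcripts in all, of which 4 belonged to the set. DESeq2 called 12 higher and 29 lower, limma-voom called 0, and neither called any of the 142. The median interaction on the log2 scale (ammonium minus nitrate) was -0.06 over the set and -0.04 over all transcripts tested. It was negative, a larger drop with ammonium, for 89 of the 142 and positive for 53. Without ammonium 720 ppm replicate 3 the median of the set was 0.02, with 63 negative and 79 positive. Without all low-complexity libraries the median was 0.01, with 67 negative and 75 positive.

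The effect of nitrogen form by itself, averaged over the CO2 levels, was limited by the way the set was chosen, since a transcript with a large nitrogen effect would not have separated by CO2 level across both forms. The values below are therefore a description of the set. In needles, 265 of 117123 transcripts (0.226%) were called higher with ammonium and 173 (0.148%) lower by edgeR's quasi-likelihood test with Benjamini-Hochberg adjustment, and 0 of the 142 were called either way. At an unadjusted p under 0.05, 4 of the 142 were higher with ammonium and 16 lower, where 8202 of all 117123 were at that level. DESeq2 and limma-voom also called 0 of them. Lower values with ammonium were the more frequent, with a negative log2 fold change for 106 of the 142 (74.6%) and a median of -0.09, against 51.4% and a median of -0.01 over all transcripts tested. Without the low-complexity libraries 80 were negative and 62 positive. In that fit PpCO2_84202 was called lower with ammonium (log2 fold change -0.57, SE 0.107, adjusted p = 0.0418 by edgeR's quasi-likelihood test). This transcript measured 9.37, 11.6 and 8.82 CPM with ammonium and 9.30, 10.6 and 14.2 CPM with nitrate at 400 ppm, and 5.01, 5.25 and 7.00 against 7.83, 7.96 and 7.43 CPM at 720 ppm. Its libraries overlapped at 400 ppm and did not at 720 ppm.

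The stem offers a first view of the same transcripts in an organ that the rule did not use. Of the 142, 141 could be tested there, and PpCO2_64803 was too low. CO2, averaged over the nitrogen forms, gave 0 calls among 137689 stem transcripts (0%) and 0 among the 141 by edgeR's quasi-likelihood test with Benjamini-Hochberg adjustment. At an unadjusted p under 0.05 there were 7520 in all, and 3 of the 141 were higher and 11 lower at 720 ppm. DESeq2 called 278 higher and 473 lower over all transcripts, 1 of them in the set, and limma-voom called 0. Within ammonium and within nitrate, and for the interaction of CO2 with nitrogen form, edgeR again called 0 stem transcripts (0%). At an unadjusted p under 0.05, 6 of the 141 were higher and 15 lower within ammonium, 0 and 8 within nitrate, and 4 and 3 for the interaction. Over all 137689 stem transcripts 7931, 3564 and 4234 were at that level in these comparisons. DESeq2 and limma-voom called 0 of the 141 in them.

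In size, too, stem values of the set changed little between the CO2 levels. The median log2 fold change at 720 ppm was -0.06 over the 141 and 0.00 over all stem transcripts tested, with 83 of the 141 negative (58.9%) against 50.1% of all. Without the low-complexity libraries the median of the 141 was 0.00, and 68 were negative. No transcript of the set had all 6 stem libraries at 720 ppm below all 6 at 400 ppm or all 6 above, where 0.563% and 0.428% of the transcripts in the needle abundance range did. By CPM, the ratio of 400 to 720 ppm was at least 1.4 in stem for 7 of the 142, and for 4.03% of the transcripts in the needle abundance range. The summed stem level ran from 2642 to 3187 CPM at 400 ppm and from 2399.9 to 3052 CPM at 720 ppm, so that the levels overlapped. In needles the rule itself kept the sums apart, so the overlap in stem is no comparison of the organs.

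One transcript, chosen after its values were seen, came closest to a difference in stem. PpCO2_13323 measured 11.4, 11.7 and 6.20 CPM with ammonium at 400 ppm against 6.21, 6.51 and 6.76 CPM at 720 ppm. With nitrate it measured 7.76, 7.60 and 8.63 CPM at 400 ppm against 3.93, 5.37 and 4.81 CPM at 720 ppm. The nitrate groups did not overlap, and among the ammonium libraries replicate 3 at 400 ppm lay with those at 720 ppm. Its log2 fold change was -0.69 (SE 0.147, adjusted p = 0.253 by edgeR's quasi-likelihood test). It was called by DESeq2 (log2 fold change -0.71, adjusted p = 0.00833) and by edgeR without stem ammonium 400 ppm replicate 3 (log2 fold change -0.80, adjusted p = 0.0212).

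In roots 4 of the 142 transcripts were called lower at 720 ppm. Averaged over the nitrogen forms, edgeR's quasi-likelihood test with Benjamini-Hochberg adjustment called 138 of 156123 root transcripts higher (0.0884%) and 804 lower (0.515%). Among the 141 transcripts of the set that could be tested, 0 were called higher and 4 lower (2.84%). These 4 were PpCO2_135120 and the 3 transcripts with successive numbers PpCO2_87442, PpCO2_87443 and PpCO2_87444, and whether those 3 are separate genes is not recorded in the table. At an unadjusted p under 0.05, 2 of the 141 were higher and 11 lower, where 15233 of all 156123 were at that level. The median log2 fold change of the 141 was -0.03, with 88 negative (62.4%). That of all root transcripts tested was 0.02, with 46.6% negative. By CPM, the root ratio, formed as in needles, had a median of 1.006 over the 142 and 1.007 over the needle abundance range. It was above 1 for 56.3% and 53.7% of them.

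PpCO2_135120 had the largest called difference. Its root level was 9.47, 9.18 and 8.66 CPM with ammonium at 400 ppm and 7.81, 5.93 and 4.97 CPM at 720 ppm. With nitrate it was 6.96, 7.96 and 7.79 CPM at 400 ppm and 4.63, 4.48 and 5.40 CPM at 720 ppm. Within each nitrogen form the CO2 levels did not overlap, while across the forms 1 ammonium library at 720 ppm lay above nitrate libraries at 400 ppm. The log2 fold change was -0.62 (SE 0.0955, adjusted p = 0.00675, edgeR's quasi-likelihood test), and the call was kept under all 19 alternatives that were run, with adjusted p-values of up to 0.0392. In stem the same transcript measured 7.97 to 10.1 CPM at 400 ppm and 6.36 to 9.82 CPM at 720 ppm, which overlapped.

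The 3 neighbours differed less, and in all 3 the 6 root libraries at 720 ppm lay below the 6 at 400 ppm, as in needles. PpCO2_87442 measured 48.5 to 54.9 CPM at 400 ppm and 40.3 to 44.7 CPM at 720 ppm, and its log2 fold change was -0.30 (SE 0.0553, adjusted p = 0.0253, edgeR's quasi-likelihood test). PpCO2_87443 was far more abundant, at 252, 275, 252 CPM (ammonium) and 272, 241, 234 CPM (nitrate) at 400 ppm, against 215, 209.6, 201 CPM and 216, 210.1, 176 CPM at 720 ppm. Its log2 fold change was -0.33 (SE 0.0682, adjusted p = 0.0492, edgeR's quasi-likelihood test), and it is named here after its values were seen. PpCO2_87444 measured 48.5 to 54.8 CPM and 37.4 to 45.2 CPM, and its log2 fold change was -0.30 (SE 0.0601, adjusted p = 0.0394, edgeR's quasi-likelihood test).

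These 3 calls stood near the threshold. They were lost in 9, 13 and 12 of 19 alternatives for PpCO2_87442, PpCO2_87443 and PpCO2_87444, with adjusted p-values (edgeR's quasi-likelihood test or the other tools) of up to 0.102, 0.156 and 0.129. PpCO2_87442 lost its call when any 1 of 8 libraries was left out (with ammonium, any replicate at 400 ppm or replicate 2 at 720 ppm; with nitrate, replicate 1 or 2 at 400 ppm, or replicate 2 or 3 at 720 ppm). PpCO2_87444 kept its call only without nitrate 720 ppm replicate 1 among the 12 single omissions, and PpCO2_87443 kept it in none. Over the 12 single omissions 1 to 3 transcripts of the set were called lower, and limma-voom called 1. All fits of these 3 kept the direction. No root library was a low-complexity one.

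**Figure D4:**
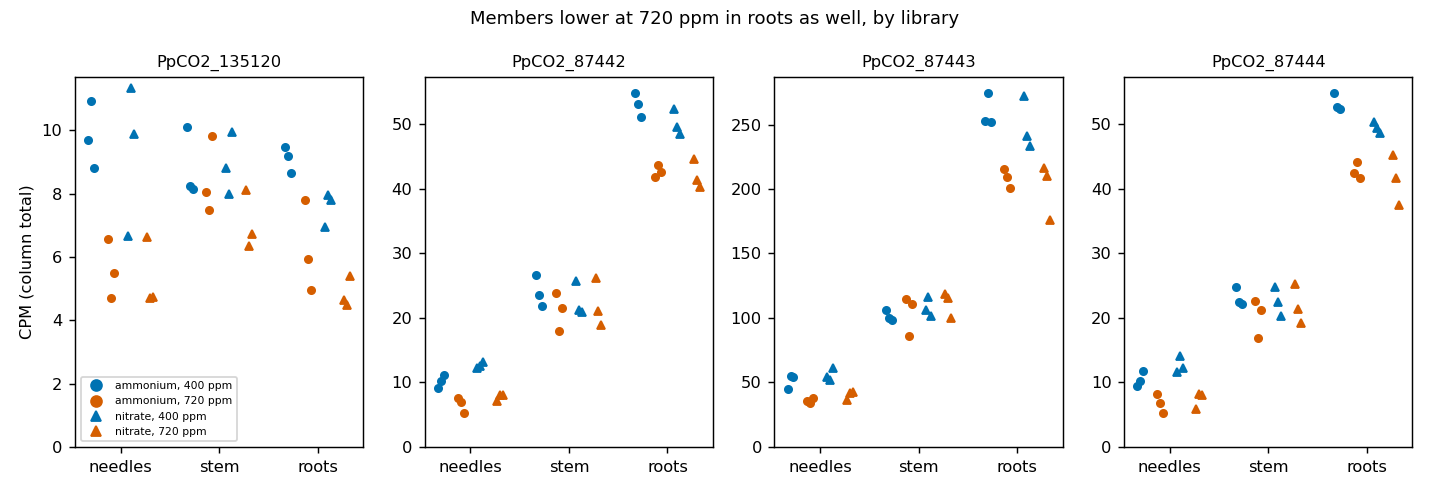
Level in CPM in needles, stem and roots of the 4 transcripts called lower at 720 ppm in roots, 1 panel per transcript, with 1 point per library (3 per group). In the roots of PpCO2_87442, PpCO2_87443 and PpCO2_87444 all 6 libraries at 720 ppm lie below all 6 at 400 ppm, in those of PpCO2_135120 this holds within each nitrogen form, and in the stem the CO2 levels overlap in all 4.

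Separation of all 6 root libraries from all 6 was rare in the set otherwise. It held for these 3 neighbours in the direction seen in needles, where 0.417% of the transcripts in the needle abundance range did the same. It held for 1 transcript in the opposite direction, against 0.194%. That transcript, PpCO2_138070, which was picked for this after its values were seen, had 8.16 to 10.2 CPM at 400 ppm and 10.2 to 13.5 CPM at 720 ppm in roots, and 6.002 to 8.67 CPM and 4.03 to 5.46 CPM in needles. No root transcript of the set was called higher.

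The root difference was also tested within each nitrogen form. With ammonium, 0 of 156123 root transcripts were called higher (0%) and 10 lower (0.00641%) by edgeR's quasi-likelihood test with Benjamini-Hochberg adjustment, none of them in the set. At an unadjusted p under 0.05, 7 of the 141 were higher and 7 lower, and 14116 of all 156123 were at that level. DESeq2, which called 574 higher and 668 lower over all root transcripts, called 4 of the 141 lower (PpCO2_135120, PpCO2_27710, PpCO2_87442 and PpCO2_87444) and limma-voom 0. With nitrate, 221 were called higher (0.142%) and 876 lower (0.561%), and 1 of the 141, PpCO2_135120, was among the latter (log2 fold change -0.67, SE 0.135, adjusted p = 0.0394, edgeR's quasi-likelihood test). That nitrate call was lost in 12 of 19 alternatives, limma-voom, unscaled library totals and a block by replicate number among them. Among the 12 single omissions it was kept only without ammonium 400 ppm replicate 1 or ammonium 720 ppm replicate 1 or 3.

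The median root log2 fold change of the 141 was 0.01 with ammonium, where all transcripts had 0.02, and -0.08 with nitrate, where all transcripts had 0.01. With nitrate 109 of the 141 were negative (77.3%), against 48.6% of all transcripts tested, and with ammonium 64 were (45.4%), against 47.1%. The difference between the forms was tested as an interaction. It was called higher for 603 root transcripts (0.386%) and lower for 119 (0.0762%) by edgeR, and for 0 of the 141 in either direction. At an unadjusted p under 0.05, 7 of the 141 were higher and 2 lower, beside 10522 of all 156123, and DESeq2 and limma-voom called 0 of them. The median interaction was 0.11 over the 141 and 0.02 over all transcripts, with 98 of the 141 positive. This contrast between the forms rested on 1 library, ammonium 720 ppm replicate 1. Without it, 107 of the 141 were negative with ammonium and 34 positive, with a median of -0.07. The median interaction was then -0.003, with 71 negative and 70 positive. Over the other single omissions it was 0.08 to 0.18.

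PpCO2_27710, one of the 8 largest ratios in needles, had a large but variable root difference. With ammonium its root level was 9.58, 6.76 and 7.40 CPM at 400 ppm and 2.37, 2.72 and 3.08 CPM at 720 ppm. With nitrate it was 6.69, 1.48 and 2.11 CPM at 400 ppm and 1.95, 1.96 and 1.57 CPM at 720 ppm. The ammonium groups lay far apart, while nitrate replicate 1 at 400 ppm alone stood above the other nitrate libraries. For ammonium the log2 fold change was -1.55 (SE 0.444, adjusted p = 0.375, edgeR's quasi-likelihood test). It was called by DESeq2 (adjusted p = 0.0356) and by edgeR without nitrate 400 ppm replicate 1 (adjusted p = 0.0371), a library that does not enter the ammonium groups but does enter the shared estimate of spread. Without that library edgeR also called the interaction (log2 value -1.58, adjusted p = 0.0440). In stem its ammonium libraries were at 5.59 to 7.89 CPM at 400 ppm and at 2.63 to 3.68 CPM at 720 ppm, and its nitrate libraries overlapped.

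**Figure D5:**
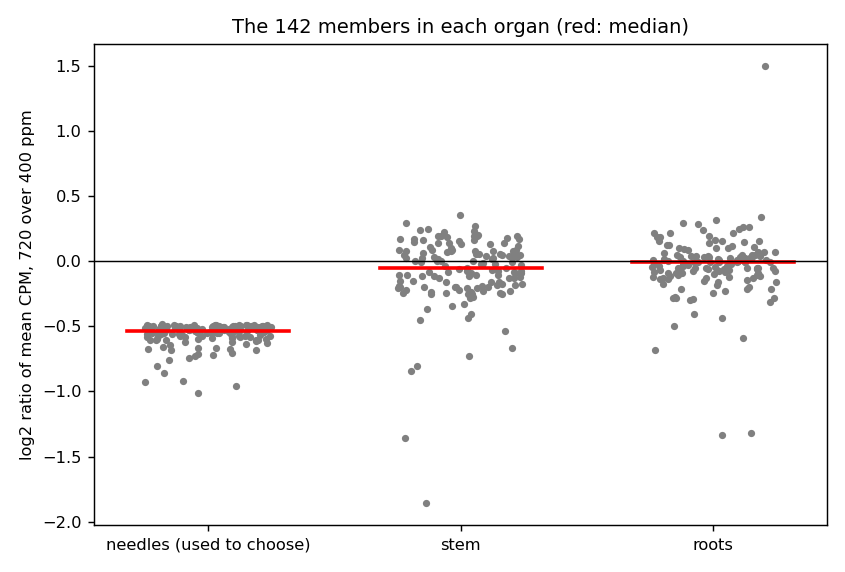
Log2 ratio of the mean CPM at 720 ppm to that at 400 ppm (6 libraries each) of the 142 transcripts in needles, stem and roots, with 1 point per transcript and a red bar at the median. The needle points all lie below 0 because they were chosen so, and the medians in stem and roots lie near 0. The highest root point is PpCO2_103883, whose root mean was 0.0919 CPM.

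The set was not one of needle-specific transcripts. By CPM, 38 of the 142 had their highest organ mean in needles (26.8%, against 29.8% of the transcripts in the needle abundance range), 63 in stem (44.4% against 30.6%) and 41 in roots (28.9% against 39.6%). The stem mean exceeded the needle mean for 100 transcripts (70.4%, against 65.3% of the abundance range) and the root mean exceeded it for 97 (68.3% against 63.4%), shares near those of the range. Stem means under 1 CPM occurred for 4 transcripts and root means under 1 CPM for 12.

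With TMM scaling, edgeR's quasi-likelihood test with Benjamini-Hochberg adjustment over 186020 transcripts called 63 of the 142 higher in needles than in stem and 38 lower. Among all transcripts tested 17.1% were higher and 23.4% lower. Against roots 63 were higher in needles and 34 lower, beside 17.4% and 38.1% of all transcripts. The floor on the needle mean enters these shares, since it kept out transcripts that are low in needles. The order of the directions reversed when the library totals were used without scaling factors, with 34 higher and 86 lower against stem and 42 higher and 81 lower against roots. TMM moved the median log2 difference of all transcripts from -0.74 to -0.27 against stem and from -1.05 to -0.56 against roots.

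Some of the transcripts were nonetheless abundant mainly in needles. By edgeR with TMM 8 were called and over 8-fold higher in needles than in stem and in roots, and no such count was made over all transcripts. The number of higher calls of any size fell from 63 to 34 against stem and from 63 to 42 against roots without scaling factors. PpCO2_61476 had a mean of 213 CPM in needles, 29.2 CPM in stem and 1.24 CPM in roots, with log2 differences of 3.38 (SE 0.0963) and 7.92 (SE 0.121). PpCO2_28210 had 14.3, 1.95 and 0.650 CPM, with a log2 difference to stem of 3.40 (SE 0.125). PpCO2_119789 and PpCO2_119793 had needle means of 197 and 253 CPM, stem means of 65.01 and 79.5 CPM and root means of 8.91 and 10.4 CPM, and their log2 differences to roots were 4.94 (SE 0.0814) and 5.08 (SE 0.0924). The adjusted p-values of these by edgeR's quasi-likelihood test were at most 5.16e-22. That fit had no term for the seedling pool that the organs share. With the pool as block they were at most 1.91e-18 by the same test.

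The transcript with the largest CO2 ratio was also nearly absent outside the needles. PpCO2_91546 averaged 33.7 CPM in needles, 0.628 CPM in stem and 0.348 CPM in roots, and its stem level was 0 in 3 of the 12 libraries. PpCO2_64803 averaged 7.22 CPM in needles, 0.0203 CPM in stem and 0.00747 CPM in roots. At such stem and root levels a CO2 difference could hardly have been detected outside the needles. The others of the 8 were PpCO2_91550, PpCO2_103883, PpCO2_140030 and PpCO2_142974, with needle means of 16.9, 7.86, 19.5 and 5.68 CPM and root means of 0.123, 0.0919, 0.171 and 0.284 CPM. The limit of 8-fold was set after values were seen, and these 4 are named by it alone.

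At the other end stood transcripts that were higher in stem or roots while sharing the needle difference. PpCO2_19853, PpCO2_84204 and PpCO2_84202 averaged 7.42, 8.73 and 8.69 CPM in needles and 38.3, 46.4 and 36.7 CPM in stem. Their log2 differences, needles over stem, were -1.85 (SE 0.0614), -1.90 (SE 0.0697) and -1.59 (SE 0.0903). PpCO2_87442, PpCO2_87443 and PpCO2_87444 averaged 9.27, 45.7 and 9.33 CPM in needles and 47.0, 229 and 46.7 CPM in roots, with log2 differences, needles over roots, of -1.88, -1.85 and -1.87 (SE 0.0714, 0.0553 and 0.0772). The adjusted p-values of these by edgeR's quasi-likelihood test were at most 1.08e-16, and at most 2.26e-14 with the seedling pool as block. These last 3 are also those that separated by CO2 level in roots, where they are most abundant.

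Neighbouring identifier numbers recurred in the set. Of the 142, 25 fell into 10 runs of successive numbers, and joining numbers within 10 of each other left 112 groups. Whether successive numbers are variants of 1 gene is not recorded in the table, so the 142 transcripts cannot be counted as 142 genes. The longest run was PpCO2_103085 to PpCO2_103088 with 4 transcripts and ratios of 1.403 to 1.4996, followed by 3 runs of 3 transcripts. These were PpCO2_110580 to PpCO2_110582 with ratios of 1.49 to 1.67, PpCO2_84482 to PpCO2_84484 with ratios of 1.41 to 1.44, and PpCO2_87442 to PpCO2_87444 with ratios of 1.41 to 1.64.

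Members of a run moved together among libraries of a group. After the group means were taken off, the 15 pairs of neighbours had a median correlation of 0.787 over the 12 needle libraries, against 0.178 for the 9996 other pairs of the set. All pairs share the same libraries and their depth. The run from PpCO2_110580 had a median of 0.945, and ammonium 720 ppm replicate 3 was its lowest library throughout, at 4.02, 5.91 and 4.49 CPM. The run from PpCO2_103085 had 0.728 and that from PpCO2_84482 had 0.746. The 3 transcripts from PpCO2_87442 had 0.294, although all 3 met the rule and all 3 were called in roots.

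The nearest numbers outside the set were looked up in the same way. Of 249 neighbouring identifiers that were not in the set, 124 lay in the needle abundance range. Of these, 120 had a higher mean at 400 than at 720 ppm, with a median ratio of 1.31, and 29 had all 6 libraries at 720 ppm below all 6 at 400 ppm. Over the whole abundance range 70.6% had a higher mean at 400 ppm, the median ratio was 1.08 and 3.96% had all 6 libraries below. These neighbours were picked beside transcripts chosen on the same needle libraries, and neighbours could share reads with them. Their values are therefore a description and no separate support for the set.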

How the data were processed

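The authors deposited a single table of raw counts per transcript identifier for 36 libraries: needles, stem and roots, 4 groups per organ, 3 biological replicates per group, per the labels. Total RNA was made into TruSeq libraries and read as 150 bp pairs on a NovaSeq, per the labels' protocols, whose extraction text names root RNA alone and whose treatment text describes another experiment. The design was taken from titles, characteristics and the series design. Conversion used bcl2fastq, per the submitters' processing notes. Aligner, counter and assembly are not given in the sources used here. Near-identical transcripts could therefore share reads, which bears on runs of neighbouring numbers.

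CPM were computed from the column totals, without a length correction, so levels are compared within a transcript. R 4.3.3, edgeR 4.0.16 (filterByExpr with a minimum count of 10, TMM, robust quasi-likelihood F-test, two-sided), limma 3.58.1 and DESeq2 1.42.0 were used. Each organ's 12 libraries were fitted with a mean per group, and organs were compared over all 36 libraries. P-values were adjusted by Benjamini-Hochberg over all transcripts tested, with calls under 0.05. The code was tested on simulated data. The members and lists were chosen with earlier results of these data known.

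The 36 pairs of replicates held 0 identical columns, and their chi-square per degree of freedom was 9.61 to 56.6, so none was merged. The labels say each replicate is a pool of 12 seedlings that gave all 3 organs, so replicate numbers pair organs. Within an organ, deviations of same-numbered libraries from their group means correlated at -0.08 to 0.37 in needles and -0.25 to 0.19 in stem. In roots all 18 such pairs correlated above 0, at 0.04 to 0.36 with a median of 0.15. The numbers were not taken as pairs within an organ, and fits with a replicate block are given among the alternatives.

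Named by rule were the 8 largest ratios, the 4 highest needle means, the 2 transcripts on each side of the ratio bound, up to 3 called members of smallest p per direction and comparison, and up to 3 runs with most members. Alternatives were other scalings, no low-count filter, limma-voom, DESeq2, a replicate block, an adjusted p under 0.1, a fold change over 2 between organs, other bounds in the rule, and leaving out low-complexity or single libraries. CPM by DESeq2 size factors and fits by unscaled column totals were added after seeing the data.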

Additional observations from a re-analysis of the deposited data

How the results depend on the processing

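Precision is limited by 3 libraries a group and by most members being under 10 CPM. In the low-complexity libraries, counts that cannot all be taken as independent fragments limit it too. The number of members, 142, became 22 by the TMM library size, 27 by DESeq2 size factors, 1 with a ratio of at least 2, 355 with needle means from 1 CPM, 242 without the low-complexity libraries and 116 to 260 without single libraries. Of 233 counts under alternatives 191 stayed within 1.5 times, 40 moved and 2 reversed. Of 239 values for named transcripts, 46 lost their call, 193 were counted as unchanged and none reversed. The unchanged values include needle ratios between the CO2 levels, which had no test and so no call to keep. Some of these ratios belong to transcripts, such as PpCO2_27710 and PpCO2_135120, that no longer met the rule by the TMM library size. The cause of the shifts in counts and calls was not tested.

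For nitrogen form in needles the count of members called went from 0 to 1 without the low-complexity libraries. For CO2 in stem it went from 0 to 1 with DESeq2 and was 0 to 1 without single libraries. For CO2 in roots it went from 4 to 1 with limma-voom and was 1 to 3 without single libraries. With ammonium in roots it was 4 with DESeq2 and 0 to 1 without single libraries. With nitrate in roots the 1 call became 0 by column totals, 0 by limma-voom, 0 with the replicate block and 2 by DESeq2, and was 0 to 1 without single libraries. The root interaction gave 0 to 1 without single libraries. Between organs the 101 calls against stem became 37 at a fold over 2 and 120 by column totals, and the 97 against roots became 38 and 123, with the order of the directions reversed by column totals in both. The replicate block changed no other count of members called by over 1.5 times. Over all root transcripts it moved the CO2 calls from 138 to 591 higher and, with ammonium, from 0 higher and 10 lower to 63 and 42. DESeq2 called 1082 higher and 2126 lower in roots, and limma-voom 29 and 133. In the organ comparisons with the seedling pool as block the member counts were 102 and 98. For each library, correlations with the libraries of the other groups were averaged by replicate number. Of 12 libraries per organ, 10 in needles, 9 in stem and 7 in roots had the highest average with their own number. This is a hint from the data and not from the design.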
